A study of Tursiops truncatus with 17 samples.

Results

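Myelin and mature oligodendrocyte transcripts were followed in the cerebral cortex of 17 bottlenose dolphins (Tursiops truncatus). The genes were chosen by name, as MBP, MOG, MAG, MOBP, CNP, ERMN, CLDN11, MAL and OPALIN, and a gene's row was taken where either name column of the files held that symbol. 8 of the 9 genes had a row among the 21265 genes of the files, each exactly 1 row, and MOBP was not analysed here. The study sequenced messenger RNA from frozen archived necropsy tissue, with 1 library per animal, and compared animals collected in a non-bloom season (n = 8) with animals collected in a bloom season (n = 9). All animals carry the genotype label WT, the tissue is labelled as cerebral cortex with no finer location, and animals are numbered here within their season in the order of deposition. Age, sex and collection date are not among the labels used here.

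Oligodendrocytes wrap axons of the central nervous system in a spiral of membrane, the myelin sheath, which speeds conduction and feeds the axon. The wraps are zipped together into compact myelin by proteins such as myelin basic protein, while cytoplasm-filled inner and paranodal channels hold proteins such as MAG and CNP. Cortical grey matter holds fewer myelinated fibres than the white matter beneath it. In bulk tissue, fewer cells of a type and less RNA per cell cannot be told apart, and this holds for every level below.

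Each library held 7680050 to 15635292 recovered reads. The mean was 1.40e+07 in non-bloom and 1.11e+07 in bloom libraries (two-sided exact permutation test, p = 0.000288, adjusted p = 0.000864 over 3 library measures). Depth thus differed between the seasons, and its part in the results below was not tested. Transcripts of the mitochondrial genome took 9.68% to 22.1% of the reads in non-bloom libraries and 1.47% to 77.2% in bloom libraries (difference of means 12.5 percentage points; two-sided exact permutation test, p = 0.235, adjusted p = 0.235 over 3 library measures). The shares of 77.2%, 57.0% and 33.5% in bloom 9, 5 and 6 were above those of all other libraries, and their other reads were the fewest, so the fit was also made without these 3 libraries. Of the 11 pan-neuronal markers with a row, the summed level ran from 7711 to 12907 in non-bloom and from 2326 to 9757 in bloom libraries. Their mean log2 level was 0.66 lower in the bloom season (two-sided exact permutation test over 24310 splits, p = 0.0166, adjusted p = 0.0249). Bloom 5 and 6 were lowest by that mean, at 6.93 and 7.36. The other bloom libraries ran from 8.35 to 9.16, and the non-bloom libraries from 8.73 to 9.50. Of the 9 astrocyte markers with a row, the summed level ran from 1807 to 3302 in non-bloom and from 1392 to 10057 in bloom libraries, with bloom 5, 9 and 6 highest. The 7 endothelial markers with a row summed to 220.1 to 749.6 in non-bloom and 146 to 2224 in bloom libraries, with bloom 6 and 5 highest. Results with the pan-neuronal level as a covariate are given below, and the part of the astrocyte and endothelial levels was not tested. Markers of Schwann cells, which make myelin in peripheral nerves, were low: the 7 markers summed to 37.1 to 63.5 in non-bloom and 23.4 to 45.5 in bloom libraries. Of these, PMP2 was at 0 in 6 libraries and NCMAP in 4. All 8 oligodendrocyte genes had reads in all 17 libraries, with at least 21 reads for CLDN11, 23 for MAL and 13746 for MBP.

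In the bloom season all 8 transcripts had higher fitted levels, and ERMN and MOG passed the test. Values are the deposited ones, reads divided by a library size that carries a TMM scaling factor (CPM), and log2 changes are on the scale log2(value + 1), bloom minus non-bloom. Passing means a Benjamini-Hochberg adjusted p under 0.05 over all 13552 genes tested (limma). 2 of the 8 genes rose and 0 fell, where 9.16% of all genes passed (4.47% higher and 4.69% lower). The median log2 change of the 8 genes was 0.63, and it was -0.0034 over all genes tested, of which 49.7% had a positive change. Positive changes were not particular to these genes: all 9 astrocyte markers (median 1.24) and all 7 endothelial markers (0.42) had them. So did 1 of 11 pan-neuronal (median -0.67), 2 of 6 microglial (-0.90) and 2 of 5 Schwann cell markers (-0.28). Without bloom 5, 6 and 9 the median was 0.62, 0 of the 8 passed by limma or edgeR (7 by limma and 4 by edgeR at an unadjusted p under 0.05, all higher), and 2.34% of all genes passed by limma and 1.67% by edgeR (1.68% and 1.33% higher, 0.659% and 0.337% lower). On the recovered reads of all 17 libraries edgeR called ERMN alone of the 8, where 8.29% of all genes passed (6.1% higher, 2.19% lower). DESeq2 called MBP, MOG, ERMN and OPALIN, where 23.4% passed (14.4% higher, 9.05% lower). With the mitochondrial to other read ratio as a covariate limma called MOG, ERMN and OPALIN, where 18.6% passed (8.1% higher, 10.5% lower). The share of all genes called was 8.84% with upper-quartile scaling (3 of the 8 called), 6.84% with a pseudocount of 0.1 and 3.19% with no filter (1 of the 8 in each). It was 30.4% by limma-voom with library quality weights (6 of the 8) and 4.17% without bloom 5 and 9 (3 of the 8).

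**Figure D1:**
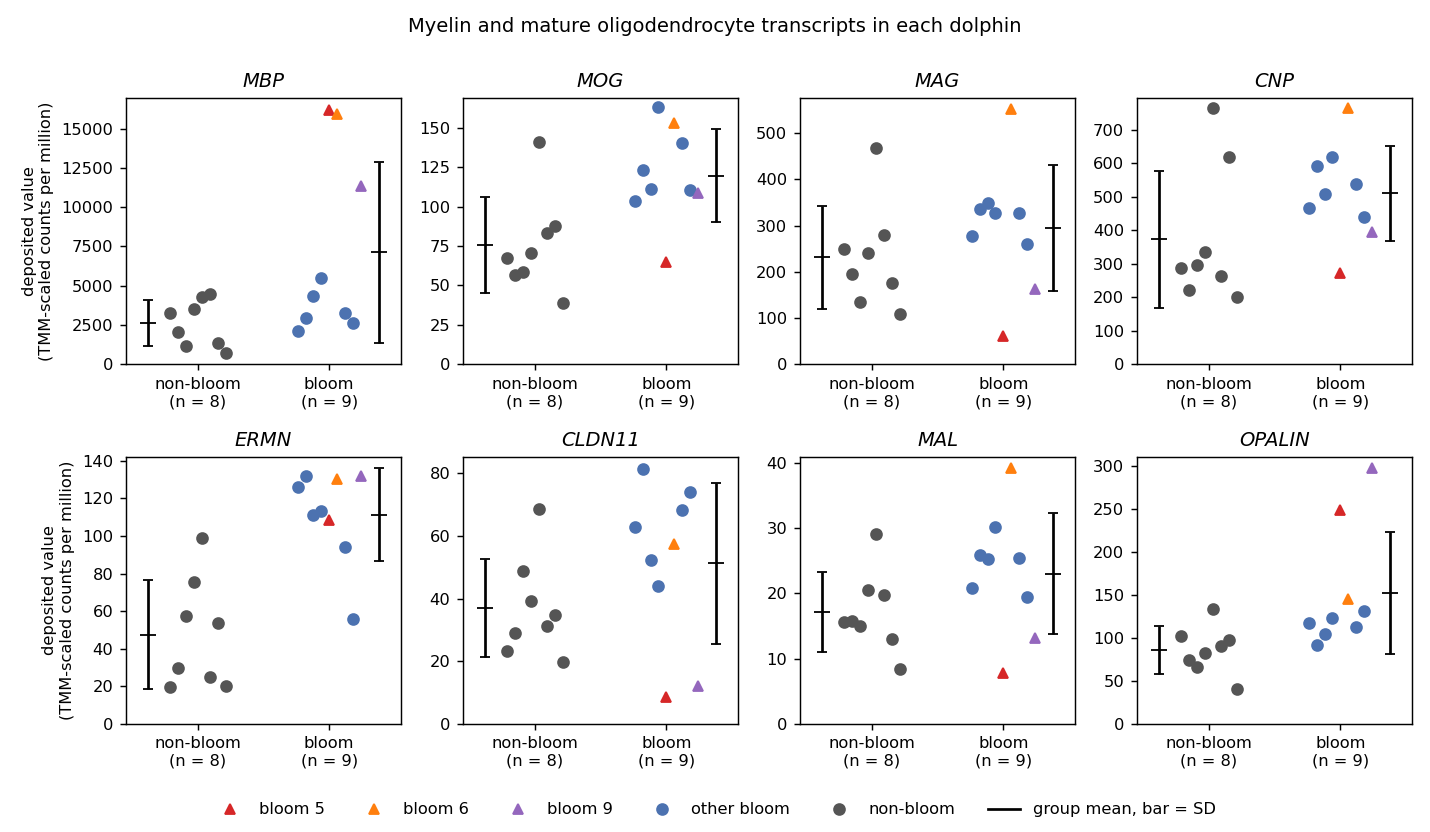
Deposited value (vertical axis, TMM-scaled CPM, linear from 0) of 8 transcripts in each of 8 non-bloom and 9 bloom libraries; each point is 1 dolphin, triangles mark bloom 5, 6 and 9, and the black bar beside each group is its mean with SD. MBP reached 16198, 15918 and 11377 in bloom 5, 6 and 9, while CLDN11 was lowest in bloom 5 and 9, at 8.56 and 12.0.

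MBP encodes myelin basic protein, which holds the cytoplasmic faces of compact myelin together and whose messenger RNA is carried out to the sheath. Its level was lowest at 737, with a median of 2644 and a highest value of 4460.15, in non-bloom libraries, and lowest at 2121, with a median of 4332 and a highest value of 16198, in bloom libraries. Bloom 5, 6 and 9 stood at 16198, 15918 and 11377, while the other 6 bloom libraries ran from 2121 to 5484 and overlapped the non-bloom range. As a share of all reads that were not mitochondrial, MBP took 2.01% in bloom 5 (95% exact binomial interval 2.00% to 2.03%), 1.96% in bloom 6 (1.94% to 1.97%) and 1.14% in bloom 9 (1.12% to 1.15%). In the non-bloom libraries the share ran from 0.0998% in non-bloom 8 to 0.576% in non-bloom 5. The high values of these 3 libraries were thus also there as a share of non-mitochondrial reads without the TMM factor. With mitochondrial reads counted too, MBP had 81381 of 9396568 reads in bloom 5 and 131383 of 10104404 in bloom 6. Bloom 9 had 19908 of 7680050, a smaller share than the 81376 of 15635292 in non-bloom 5. The group means were 2599.5 ± 1463 (SD, n = 8) and 7141 ± 5764 (SD, n = 9), and the log2 change of 1.30 (SE 0.49, 95% interval 0.28 to 2.32) did not pass (limma adjusted p = 0.0761). It passed without bloom 1 or without bloom 8 (limma adjusted p = 0.0406 and 0.0499), and by DESeq2 (adjusted p = 0.0136). Without bloom 5, 6 and 9 it was 0.59 (SE 0.39, limma adjusted p = 0.374).

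MAL encodes a small lipid-raft protein that takes part in membrane sorting to the sheath. Its values ran from 8.36 to 29.0 (median 15.7) in non-bloom and from 7.76 to 39.3 (median 25.2) in bloom libraries. Bloom 6 was highest and bloom 5 and 9 lowest, at 7.76 and 13.1, so that the bloom range enclosed the non-bloom range. The log2 change was 0.36 (SE 0.27, 95% interval -0.20 to 0.92, limma adjusted p = 0.326). It was 0.55 (SE 0.20, limma adjusted p = 0.129) without bloom 5, 6 and 9.

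CLDN11 encodes the claudin that forms the tight junction strands running through the layers of myelin. It ran from 19.9 to 68.5 (median 33.0) in non-bloom and from 8.56 to 81.5 (median 57.4) in bloom libraries. The lowest values of all 17 libraries were those of bloom 5, at 8.56 (43 reads, 95% exact Poisson interval 6.19 to 11.5), and bloom 9, at 12.0 (21 reads, 7.43 to 18.3); the intervals cover counting error only. The next lowest was non-bloom 8 at 19.9 (17.9 to 22.0), an interval that overlapped that of bloom 9 and lay above that of bloom 5. The 6 bloom libraries other than bloom 5, 6 and 9 ran from 44.1 to 81.5. The log2 change was 0.27 (SE 0.40, 95% interval -0.57 to 1.12, limma adjusted p = 0.638). Without bloom 5, 6 and 9, which takes out these lowest values, it was 0.84 (SE 0.23, limma adjusted p = 0.0585).

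MAG encodes the myelin-associated glycoprotein of the innermost wrap, which faces the axon. It ran from 109 to 468 (median 218) in non-bloom and from 61.5 to 552 (median 326) in bloom libraries. Bloom 6 held the highest value of all 17 libraries and bloom 5 the lowest (309 reads, 95% exact Poisson interval 54.8 to 68.8), and bloom 9 stood at 162. The 6 other bloom libraries lay close together, from 259 to 349. The log2 change was 0.29 (SE 0.35, 95% interval -0.45 to 1.03, limma adjusted p = 0.566), and it was 0.56 (SE 0.24, limma adjusted p = 0.191) without bloom 5, 6 and 9.

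CNP encodes an enzyme of the cytoplasm-filled channels, the cyclic nucleotide phosphodiesterase of myelin. It ran from 199.5 to 766 (median 291) in non-bloom and from 271 to 764 (median 508) in bloom libraries. The non-bloom values fell apart, with non-bloom 5 and 7 at 766 and 618 and the other 6 libraries at 335 or below. 8 of 9 bloom libraries lay above the non-bloom median. The log2 change was 0.55 (SE 0.26, 95% interval 0.012 to 1.10, limma adjusted p = 0.134), and it was 0.64 (SE 0.26, limma adjusted p = 0.157) without bloom 5, 6 and 9.

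MOG, a glycoprotein of the outermost surface of the sheath, rose in the bloom season. It ran from 39.1 to 141 (median 69.0) in non-bloom and from 64.9 to 163 (median 111) in bloom libraries. Bloom 5 was the only bloom library below the non-bloom median, and the other 7 non-bloom libraries than non-bloom 5 stood at 87.7 or below. The means were 75.5 ± 30.5 (SD, n = 8) and 120 ± 29.5 (SD, n = 9), a log2 change of 0.70 (SE 0.21, 95% interval 0.26 to 1.15, limma adjusted p = 0.0480). The call was lost in 12 of 17 fits with 1 library left out: without non-bloom 1, 2, 3, 4, 6, 7 or 8 and without bloom 2, 3, 6, 7 or 9, where the limma adjusted p reached 0.0952. Over all 17 of these fits the log2 change ran from 0.58 to 0.84. Without bloom 5, 6 and 9 it was 0.79 (SE 0.21, limma adjusted p = 0.0565), and edgeR on the recovered reads gave 0.67 (adjusted p = 0.0578).

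OPALIN, a transmembrane glycoprotein found in oligodendrocytes of the central nervous system, ran from 40.7 to 134 (median 86.7) in non-bloom and from 91.8 to 298 (median 123) in bloom libraries. All 9 bloom values exceeded the median of the non-bloom season, and bloom 9, 5 and 6 were highest, at 298, 249.6 and 146. The other 6 bloom libraries ran from 91.8 to 132, inside the non-bloom range. The log2 change was 0.78 (SE 0.25, 95% interval 0.26 to 1.29, limma adjusted p = 0.0522), and it passed without bloom 1, 4 or 8, where the limma adjusted p was as low as 0.0364. It was 0.45 (SE 0.20, limma adjusted p = 0.187) without bloom 5, 6 and 9.

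ERMN, which encodes ermin, a cytoskeletal protein of mature oligodendrocytes, rose in the bloom season, with the lowest p of the 8 genes. It ran from 19.7 to 99.2 (median 41.6) in non-bloom and from 55.7 to 132 (median 113) in bloom libraries. 7 of 9 bloom libraries lay above the highest non-bloom library, and the exceptions were bloom 7 at 93.9 and bloom 8 at 55.7. Bloom 5, 6 and 9 stood at 108, 130.2 and 132, beside the other bloom libraries. The means were 47.5 ± 29.2 (SD, n = 8) and 111 ± 24.6 (SD, n = 9), a log2 change of 1.41 (SE 0.30, 95% interval 0.78 to 2.03, limma adjusted p = 0.0232). The call was lost without non-bloom 2, 6 or 8 (limma adjusted p at most 0.0588), and without bloom 5, 6 and 9, where the change was 1.31 (SE 0.34, limma adjusted p = 0.0537). edgeR on the recovered reads also called it (log2 change 1.23, adjusted p = 0.0305). With the mean level of pan-neuronal markers as a covariate the log2 changes of ERMN and MOG were 1.32 (SE 0.35) and 0.85 (SE 0.24), and neither passed (limma adjusted p = 0.191 and 0.218). The same covariate took the change of MBP from 1.30 to 0.81 (SE 0.52), that of MAG from 0.29 to 0.63 (SE 0.38), that of CLDN11 from 0.27 to 0.65 (SE 0.44) and that of MAL from 0.36 to 0.58 (SE 0.30). CNP and OPALIN stood at 0.59 (SE 0.30) and 0.62 (SE 0.28). None of the 8 passed by limma, where 0.0738% of all genes did. At an unadjusted p under 0.05 by limma were 3 of the 8, and 1553 of all 13552 genes.

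**Figure D2:**
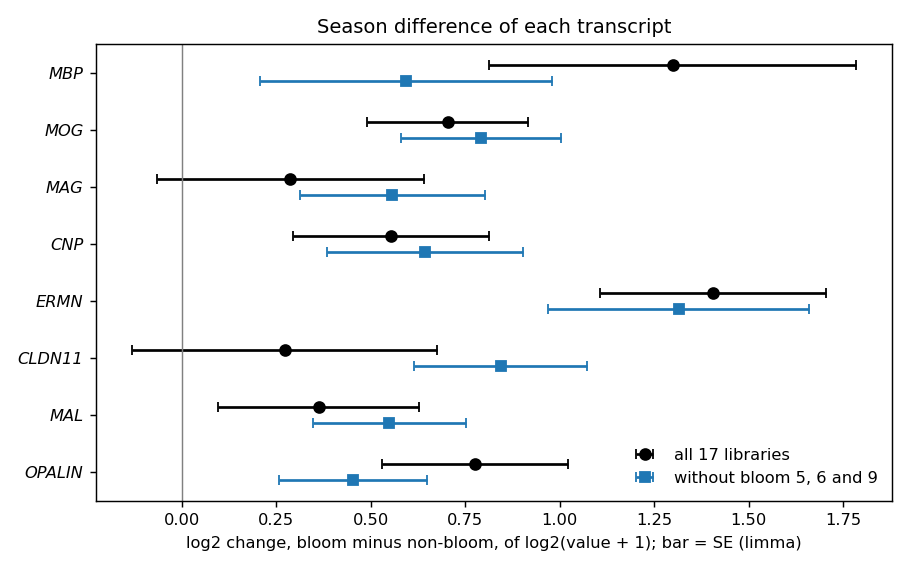
Log2 change of each transcript, bloom minus non-bloom, on the log2(value + 1) scale, with its SE as the bar, from all 17 libraries (black circles) and without bloom 5, 6 and 9 (blue squares). All 8 changes were above 0 in both fits; MBP went from 1.30 to 0.59 and CLDN11 from 0.27 to 0.84 when the 3 libraries were left out.

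Among the non-bloom animals the genes shared their extreme libraries more than the order between them. Non-bloom 5 held the highest value of 7 of the 8 genes, all but MBP, and non-bloom 8 the lowest of 7, all but ERMN. Between them the order varied: non-bloom 1 was the 2nd highest for OPALIN and lowest for ERMN, and non-bloom 6 was highest for MBP and 6th for CNP and ERMN. The highest non-bloom value was 3.29 times the lowest for OPALIN and 6.05 times the lowest for MBP, with the other 6 genes between these. In the 6 bloom libraries other than bloom 5, 6 and 9 the same ratio was 1.35 for MAG, 1.40 for CNP, 1.58 for MOG and 2.59 for MBP. Each gene was also set against the mean standardised level of the other 7. Within the 8 non-bloom libraries Spearman's rho was highest for MOG, at 0.90 (Pearson's r 0.95), 0.62 for MBP and OPALIN (0.69 and 0.88), 0.60 for MAG and CLDN11 (0.86 and 0.77) and lowest for ERMN, at 0.48 (0.66). Over the 14 libraries without bloom 5, 6 and 9 Pearson's r was 0.96 for MOG (Spearman's rho 0.97), 0.94 for MAL (0.92) and 0.90 for MAG (0.88), and lowest for MBP, at 0.71 (0.60). These values are descriptions with no test, each library's depth and scaling enter all of them, and the season difference enters those over 14 libraries.

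In bloom 5 and bloom 9 MBP and OPALIN were high while MAG, CLDN11 and MAL were low, and bloom 6 was among the 3 highest bloom libraries for 7 of the 8 genes, all but CLDN11. Against the median of the other 6 bloom libraries, bloom 5 held 5.23 times the MBP and 2.18 times the OPALIN, with 0.188 times the MAG, 0.130 times the CLDN11 and 0.307 times the MAL. Bloom 9 went the same way, with 3.68 times the MBP, 2.60 times the OPALIN, 0.495 times the MAG and 0.183 times the CLDN11. Bloom 6 shared the MBP level, at 5.14 times, but its MAG and CNP were 1.69 and 1.46 times the median and its CLDN11 0.874 times. ERMN was close to the median in all 3, at 0.965, 1.16 and 1.18 times in bloom 5, 6 and 9. For all genes tested, 12.6% in bloom 5, 10.8% in bloom 6 and 14.6% in bloom 9 were over 2-fold higher than that median on the log2(value + 1) scale, and 2.84% in all 3; of the 8 genes MBP alone was over 2-fold higher in all 3. Over 2-fold lower in both bloom 5 and bloom 9 were 8.64% of all genes and, of the 8, MAG and CLDN11. These are 3 single animals set against a median, and no test was made. Their astrocyte markers summed to 10057, 8464 and 9496 in bloom 5, 6 and 9, against 1392 to 6122 in the other bloom libraries. In bloom 9 GFAP (6021) and ALDOC (2657) made up most of that sum, and SLC1A3, FGFR3 and GJA1 were below the median of the other 6, by -0.37, -0.61 and -1.49 on the log2(value + 1) scale. The median difference over the 9 astrocyte markers was 1.29, 2.23 and 0.54 in bloom 5, 6 and 9. Endothelial markers summed to 1938 and 2224 in bloom 5 and 6 and to 158 in bloom 9, against 146 to 1099 in the other bloom libraries. Their pan-neuronal markers summed to 2326, 3401 and 7710.5, against 5317 to 9757.

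**Figure D3:**
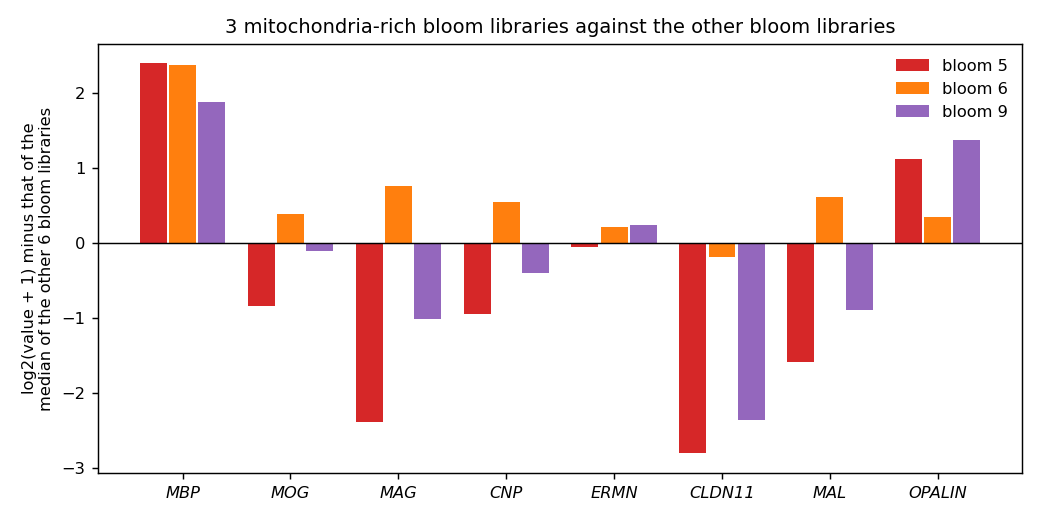
Bars give log2(value + 1) of each transcript in bloom 5, bloom 6 and bloom 9 minus that of the median of the other 6 bloom libraries. MBP stood at 2.39, 2.36 and 1.88, while CLDN11 stood at -2.80 in bloom 5, -0.19 in bloom 6 and -2.36 in bloom 9.

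Ratios of reads within a library do not depend on how libraries were scaled. MBP had 6.74 to 16.0 reads per MAG read in non-bloom libraries and 7.68 to 16.7 in the 6 other bloom libraries. The ratio was 263 in bloom 5, 28.8 in bloom 6 and 70.3 in bloom 9. Reads of MBP per read of MOG ran from 15.5 to 53.6 in non-bloom libraries and from 20.5 to 39.0 in the 6 other bloom libraries, and stood at 249.6, 104 and 105 in bloom 5, 6 and 9. OPALIN to MAG was 0.287 to 0.558 in non-bloom libraries, 4.06 in bloom 5 and 1.84 in bloom 9, and 0.264 in bloom 6. CNP to MOG varied less, from 3.16 to 7.05 in non-bloom libraries and from 3.65 to 4.99 in all 9 bloom libraries. ERMN to MOG ran from 0.293 to 1.07 in non-bloom and from 0.504 to 1.67 in bloom libraries, and the ranges overlapped. The number of reads per gene also depends on transcript length, which is not given in the files, so the ratios are compared between libraries and not read as relative abundance of the genes.

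**Figure D4:**
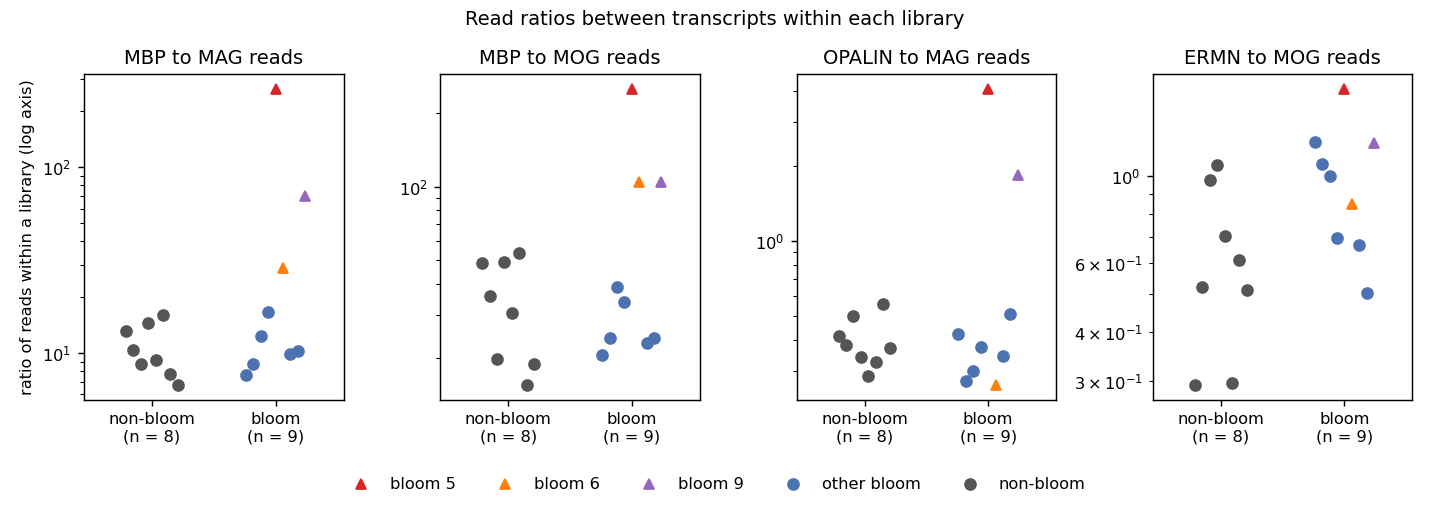
Ratio of reads of 2 transcripts within each library (log axis), for MBP to MAG, MBP to MOG, OPALIN to MAG and ERMN to MOG; each point is 1 dolphin and triangles mark bloom 5, 6 and 9. MBP to MAG was 28.8 to 263 in these 3 libraries and at most 16.7 in all others.

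Other genes of the oligodendrocyte and the myelinated fibre were taken from 5 lists, counted in the same fit, where 4.47% of all genes rose and 4.69% fell. Among 24 tested genes of myelin structure and mature oligodendrocyte membranes 2 rose and 0 fell, 21 had positive changes and the median was 0.29. Without bloom 5, 6 and 9 the median was 0.41 and 4 rose, where 1.68% of all genes did, among them ANLN, PLEKHH1 and JAM3, a junctional adhesion molecule (0.80, SE 0.19, limma adjusted p = 0.0408). ANLN, an anillin that scaffolds septins in the sheath, had a mean of 44.1 ± 20.7 (SD, n = 8) in non-bloom and 102 ± 24.6 (SD, n = 9) in bloom libraries. It rose by 1.27 (SE 0.23, limma adjusted p = 0.0110), and its call was kept in all 17 fits with 1 library left out and without bloom 5, 6 and 9, and lost with the pan-neuronal covariate (1.24, limma adjusted p = 0.0869). PLEKHH1 rose by 0.99 (SE 0.26, limma adjusted p = 0.0359), a call lost if non-bloom 1, 2, 3, 6 or 8 or bloom 2, 6 or 7 was left out, by edgeR (adjusted p = 0.0576), or if the pan-neuronal level was a covariate (limma adjusted p = 0.179). Of 14 genes of myelin lipid synthesis GLTP, a glycolipid transfer protein, averaged 19.0 ± 4.77 (SD, n = 8) in non-bloom and 34.2 ± 9.57 (SD, n = 9) in bloom libraries. GLTP rose by 0.81 (SE 0.17, limma adjusted p = 0.0226), lost without non-bloom 2 or 8, and when the pan-neuronal level was a covariate (0.64, limma adjusted p = 0.225). The other 13 did not pass, 0 fell, and the median of the list was 0.31. UGT8, which makes the galactolipid of myelin, changed by 0.66 (SE 0.40) and FA2H, which hydroxylates its fatty acid, by 0.64 (SE 0.33). Leaving out bloom 5, 6 and 9 gave a median of 0.38, and GLTP and FA2H passed (FA2H 1.02, SE 0.25, limma adjusted p = 0.0430).

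Of 8 tested oligodendrocyte transcription factors 2 rose and 0 fell, where 4.47% of all genes rose and 4.69% fell. The median was 0.67, or 0.83 without bloom 5, 6 and 9, where the same genes passed. ST18, a zinc finger factor, averaged 10.8 ± 4.49 (SD, n = 8) in non-bloom and 22.5 ± 5.75 (SD, n = 9) in bloom libraries. It rose by 1.04 (SE 0.21, limma adjusted p = 0.0178), and was called in all 17 fits with 1 library left out, but not with the pan-neuronal covariate (0.95, limma adjusted p = 0.159). NKX2-2, a homeobox factor of oligodendrocyte differentiation, rose by 0.88 (SE 0.24, limma adjusted p = 0.0372), and failed to pass in the fits leaving out non-bloom 1, 2, 3, 6, 7 or 8, or bloom 2, 5, 6 or 7, or with the pan-neuronal covariate (0.69, limma adjusted p = 0.344). SOX10, which is active through the whole lineage, and MYRF, which switches on myelin genes, changed by 0.59 (SE 0.30) and 0.66 (SE 0.35), and neither passed.

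The list that joins genes of oligodendrocyte precursors and of newly formed oligodendrocytes moved in both directions. Among its 13 tested genes 1 rose and 2 fell, where 4.47% of all genes rose and 4.69% fell. The median was -0.060, or -0.15 without bloom 5, 6 and 9. PDGFRA, the growth factor receptor that defines precursors, averaged 24.5 ± 12.4 (SD, n = 8) in non-bloom and 8.41 ± 8.12 (SD, n = 9) in bloom libraries. It fell by 1.84 on the log2 scale (SE 0.52, limma adjusted p = 0.0419). Leaving out any of non-bloom 1, 2, 3, 5, 6, 7 and 8 and bloom 2, 5, 6 and 7 ended that call, and the change was -1.30 (SE 0.49, limma adjusted p = 0.136) without bloom 5, 6 and 9. TNR, a matrix glycoprotein made by precursors and by other cells, fell by 1.47 on the log2 scale (SE 0.44, limma adjusted p = 0.0459). The TNR call was lost in 13 of 17 fits, all but those without non-bloom 3 or bloom 1, 4 or 8, and the change was -0.84 (SE 0.28, limma adjusted p = 0.103) without bloom 5, 6 and 9. By edgeR neither PDGFRA nor TNR passed (adjusted p = 0.0784 and 0.0626). Given the pan-neuronal covariate, the changes of PDGFRA, TNR and ITPR2 were -1.50, -0.65 and 0.52 (limma adjusted p = 0.362, 0.483 and 0.475). ITPR2, a calcium channel of the endoplasmic reticulum, rose by 0.94 (SE 0.29, limma adjusted p = 0.0487), and its call was kept in 3 of 17 fits, those leaving out bloom 1, 4 or 8. Its change was 0.60 (SE 0.27, limma adjusted p = 0.209) without bloom 5, 6 and 9. On the axon side of the myelinated fibre 0 of 14 genes rose and 2 fell, where 4.47% of all genes rose and 4.69% fell. All 14 had negative changes, and the median was -0.68, or -0.21 without bloom 5, 6 and 9. The pan-neuronal markers also went down: of 11 tested 0 rose and 1 fell, and 1 had a positive change. Their median was -0.67, or -0.33 without bloom 5, 6 and 9. CNTN1 and CNTNAP2, cell adhesion proteins of the paranode and of the stretch beside it, fell by 1.09 (SE 0.26, limma adjusted p = 0.0302) and by 1.02 (SE 0.25, limma adjusted p = 0.0323). Both failed to pass in the fits leaving out non-bloom 2, 6, 7 or 8, or bloom 5, 6 or 7. Without bloom 5, 6 and 9 together the changes were -0.70 and -0.75 (limma adjusted p = 0.0760 and 0.0854). These genes are active in neurons, and which cells their reads came from was not tested. With the pan-neuronal level as a covariate CNTN1 and CNTNAP2 changed by -0.75 and -0.86, and neither passed (limma adjusted p = 0.306 and 0.297).

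**Figure D5:**
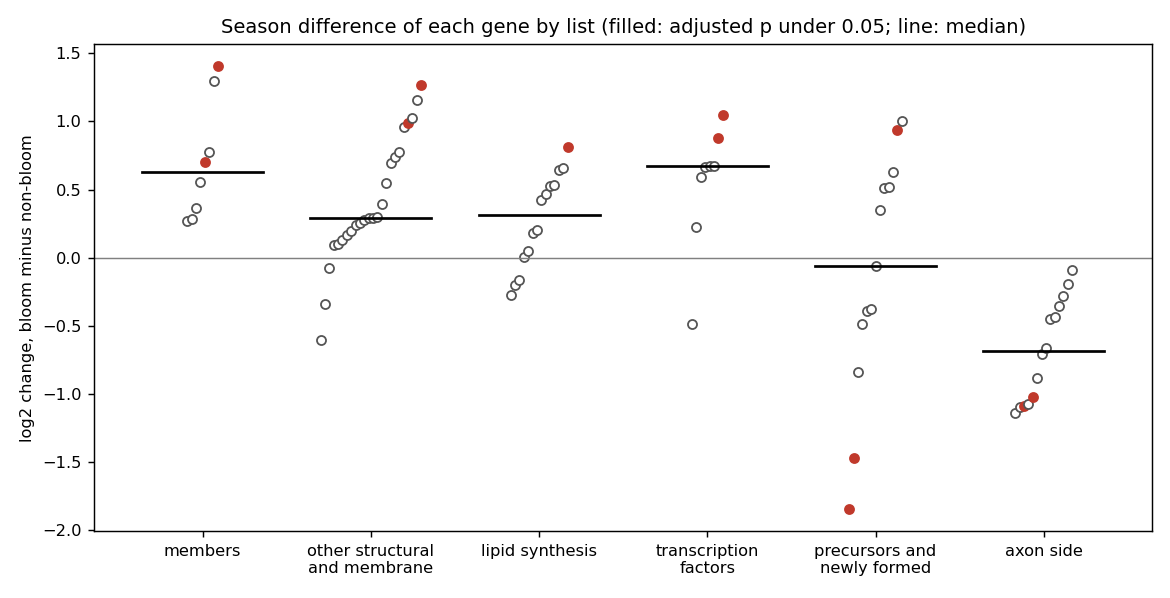
Log2 change (bloom minus non-bloom, on the log2(value + 1) scale) of each tested gene in 6 lists; filled points passed at a limma adjusted p under 0.05 and each line is the list's median. The 8 myelin genes (members) lay between 0.27 and 1.41, and the axon-side genes all lay below 0.

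The genes whose pattern over the libraries was most like that of the 8 were found by Pearson's r between log2(value + 1) of a gene and the mean standardised level of the 8, over all 17 libraries and with no test. ELOVL1, an elongase of very long chain fatty acids, was closest (r = 0.95), then TMEM125 (0.92), LIPE, the hormone-sensitive lipase (0.91), and SLC5A11, an inositol transporter (0.91). RASSF4 (0.88), LLGL1 (0.88), SLAIN1 (0.87) and CYP27A1, a sterol hydroxylase (0.87), followed. ELOVL1 was also first over the 14 libraries without bloom 5, 6 and 9 (r = 0.96), where SLC5A11 was the only other of the 8 to stay among the top 8, which there included TF, ENPP2, FAM222A, TMEM63A and C11ORF24. The log2 changes of these 8 genes between seasons ran from 0.36 for RASSF4 to 0.78 for LIPE. They were chosen for a pattern that was itself higher in the bloom season, so these changes are a description with no test.

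All 8 rows are protein-coding genes in the files, and none overlapped another gene's row. MBP lies on GeneScaffold_538 from 493630 to 555154, MOG on GeneScaffold_3483 from 142270 to 152048, ERMN on GeneScaffold_1446 from 341923 to 346401 and CLDN11 on GeneScaffold_58 from 2152 to 12017. These are the files' own coordinates, and no source used here names their genome build.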

How the data were processed

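Trim Galore 0.6.1 and STAR 2.5.2a are named in the submitters' processing notes; no source used here names the counting tool, build or annotation. Each gene had 1 deposited signal value per library, normalised by the authors. All nonzero values divided by their library's smallest step gave whole numbers (100% within 0.01), taken as reads; 3 reads were worth 0.158 to 1.71. filterByExpr by season (minimum count 10, total 15) left 13552 genes. Season alone was tested by limma-trend on log2(value + 1) over all 17 libraries, with Benjamini-Hochberg adjustment and a threshold of 0.05. Recovered reads were also tested with edgeR, DESeq2 and limma-voom, the last with library quality weights wherever it is named. The 95% intervals of counts and shares hold counting error only, as PCR copies are not independent molecules. The genes, lists and tests were chosen with earlier results of these data known. Named genes were the members, up to 4 of each list that passed (smallest p first), the 8 most alike in pattern (mean of at least 1), and GFAP and SNAP25 as markers; UGT8, FA2H, SOX10, MYRF and those singled out for bloom 5, 6 and 9 were named after their values were seen. Some results are not reported here. The test was also run on simulated data. SEPTIN4 and SEPTIN8 were looked up by older symbols too. Fits used limma 3.58.1, edgeR 4.0.16 and DESeq2 1.42.0 in R 4.3.3.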

Additional observations from a re-analysis of the deposited data

Results flagged for a closer look

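For each of the 8 genes the highest and lowest library of each season were compared with the nearest other library (16 groups of values; chance alone marks about 1 group in 20). MAG in non-bloom 5, at 468, stood apart from the next highest non-bloom library at 279. ERMN in bloom 8, at 55.7, lay below the next lowest bloom library at 93.9. Bloom 8 also had the lowest mitochondrial share of the 17 libraries, 1.47%.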

How the results depend on the processing

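All 8 genes kept a positive change in the 30 other settings. The number of genes past the threshold was 1241; it was 560 with no filter, 3173 by DESeq2, 4124 by limma-voom, 10 with the pan-neuronal covariate, 2518 with the mitochondrial covariate, 320 without bloom 5, 6 and 9, 228 by edgeR without them, 566 without bloom 5 and 9 (the last 2 settings were chosen after seeing the data), and 61 to 2895 with 1 library left out. Upper-quartile scaling called 1198 and a pseudocount of 0.1 called 927. edgeR called 1123 genes, 826 higher and 297 lower, against 606 and 635 by limma. Of the 8 genes 2 passed. With upper-quartile scaling 3 did, 1 with a pseudocount of 0.1, with no filter and by edgeR, 4 by DESeq2 and 6 by limma-voom. With the pan-neuronal covariate 0 passed (3 at an unadjusted p under 0.05 by limma, beside 1553 of all 13552 genes). With the mitochondrial covariate 3 passed, 0 without bloom 5, 6 and 9, and 3 without bloom 5 and 9. With 1 library left out 0 to 4 passed. Without non-bloom 2, 6 or 8 0 passed, with 4 at an unadjusted p under 0.05 by limma in each. At that unadjusted p were 4064 of 13644, 4093 of 13631 and 4137 of 13622 genes in these fits, in that order. MOG lost its call with a pseudocount of 0.1 (0.71), no filter (0.70), edgeR (0.67), the pan-neuronal covariate (0.85), without bloom 5, 6 and 9 (0.79) and by edgeR without them (0.73); ERMN with that covariate (1.32), without bloom 5, 6 and 9 (1.31) and by edgeR without them (1.15). Calls were gained by MBP with DESeq2 (1.49), by CNP, CLDN11 and MAL with limma-voom (0.80, 0.80 and 0.63), by CLDN11 without bloom 5 and 9 (0.83; these hold its lowest values) and by OPALIN with upper-quartile scaling, DESeq2, limma-voom and the mitochondrial covariate (0.82, 0.84, 0.57 and 0.68). With 1 library left out the log2 change ran from 1.08 to 1.47 for MBP, 0.58 to 0.84 for MOG, 0.15 to 0.54 for MAG, 0.45 to 0.73 for CNP, 1.26 to 1.59 for ERMN, 0.15 to 0.54 for CLDN11, 0.24 to 0.53 for MAL and 0.63 to 0.88 for OPALIN. Of the 8 genes most alike in pattern 2 stayed without bloom 5, 6 and 9. The cause of these changes was not tested. Depth limits CLDN11 and MAL most, at 21 and 23 reads in bloom 9. No paired analysis was possible because each library is another dolphin and the labels give the seasons no shared numbers.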

Other observations

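Other genes of the lists shared the rise of MBP in bloom 5, 6 and 9; they were chosen after their values were seen, and no test was made. BCAS1, a gene of newly formed and myelinating oligodendrocytes, stood at 1776, 1634 and 1006 in bloom 5, 6 and 9, where the median of the other 6 bloom libraries was 390.0. CA2, a carbonic anhydrase of oligodendrocytes, stood at 733, 1107 and 427, against a median of 138. PLEKHB1 stood at 1198, 891 and 1213, against 323, LPAR1, a lysophosphatidic acid receptor, at 439, 190.2 and 204, against 69.8, and GPM6B at 1272, 1008 and 943, against 369.7. The summed astrocyte markers were also highest in bloom 5, 6 and 9, in bloom 9 mostly by GFAP and ALDOC. Which cells the reads of these genes came from was not tested. Of 24 tested genes of myelin structure 4 were over 2-fold higher in all 3 libraries and 8 over 2-fold lower in both bloom 5 and bloom 9, where the shares of all genes were 2.84% and 8.64%. Among those lower, TF, which encodes transferrin, stood at 231 in bloom 5 and 438 in bloom 9, against 915, and was at 1044 in bloom 6. Of the lipid synthesis list, UGT8 stood at 21.7 in bloom 5 and 48.0 in bloom 9, against 151, and at 90.9 in bloom 6. GFAP, the astrocyte filament protein, ran from 232 to 1428 in non-bloom and from 241 to 6021 in bloom libraries, and SNAP25, a vesicle fusion protein of neurons, from 2387 to 4408 and from 728 to 3044.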
